A study of Homo sapiens with 10 samples.

Results

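The mRNA levels of 10 integrin subunits were followed in the human melanoma line A375, in cells given small interfering RNA (siRNA) to PHF10 or to MYC. The members were picked by symbol as ITGA2, ITGA3, ITGA4, ITGA5, ITGA6, ITGA9, ITGAV, ITGB1, ITGB3 and ITGB5, and all 10 matched an Ensembl gene ID among the 60623 IDs counted in each library. PHF10 is a subunit of PBAF, a chromatin remodelling complex, and MYC is a transcription factor of growth genes. The series title poses the part of PHF10 in activation by MYC as the question. PHF10 was targeted in experiment 1, with 4 siRNA libraries beside 2 controls, and MYC in experiment 2, with 2 labelled libraries beside 2 controls of that experiment. Every culture was harvested 72 h after transfection, and A375 is 1 established line grown in a dish, with no stroma or animal host around the cells. For the controls, the design and protocol texts speak of control siRNA, while the siRNA field says that they were untreated.

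Integrins are receptors of the cell surface that hold a cell to its surrounding matrix. Each is a pair of 1 alpha and 1 beta chain, and the pair decides which ligand is bound. ITGB1, the beta 1 chain, pairs with ITGA2 to bind collagen, with ITGA3 or ITGA6 to bind laminin, with ITGA5 to bind fibronectin, and with ITGA4 or ITGA9 to bind VCAM1, fibronectin or tenascin. ITGAV, the alpha V chain, pairs with ITGB1, ITGB3 or ITGB5 to bind vitronectin and other proteins that carry the RGD motif, and its pair with ITGB3 is well known in invasive melanoma. A chain reaches the surface only as part of a pair, so mRNA does not give the level of any receptor.

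Reads assigned to genes numbered 20.5 to 38.4 M per library. PHF10 was at 15.1 to 18.0 CPM (reads of a gene scaled to the library's size by the TMM method) in the PHF10 siRNA libraries, below the 36.6 and 40.1 CPM of their controls. By reads, these controls had 863 and 848 for PHF10 among 20.5 and 23.7 M assigned to genes. The experiment 2 controls had 4352 and 3958 among 36.6 and 33.2 M. The 2 sets of controls thus differed in PHF10 beyond their difference in depth. MYC was at 13.3 and 16.7 CPM in the libraries labelled MYC siRNA and at 14.9 and 26.5 CPM in their controls, so its mRNA did not separate them, and these libraries are called by their label below. Of the melanoma markers, SOX10, AXL and CSPG4 were abundant in every library, while the pigment genes MLANA and TYR were at or near 0. A group of type I interferon genes was high in some libraries of experiment 1, with a mean log2 CPM of 7.68, 7.34, 3.27 and 4.71 in PHF10 siRNA replicates 1 to 4 and of 8.04 and 4.56 in the controls, against 2.88 to 3.10 in experiment 2. The common coefficient of biological variation, the spread between replicates beyond counting error, was 26.7% in experiment 1 and 3.39% in experiment 2. Nothing in the labels says that replicates were separate cultures, so the p-values gauge no more than the spread among these samples, which may be technical.

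All 10 members passed the filter on low counts, with 277 reads as the lowest count of a member in a library, for ITGA9. Levels per length are given in RPKM, reads scaled to exon length and to library size. In the experiment 2 controls ITGB1 led with 68.3 ± 0.223 RPKM (SD, n = 2), and ITGA5 followed with 68.1 ± 1.45, a difference within their spread. ITGA6 came next with 64.4 ± 3.05 RPKM, then ITGA3 with 47.0 ± 0.838, ITGB5 with 33.5 ± 0.330, ITGA2 with 32.4 ± 0.573, ITGAV with 25.1 ± 0.269 and ITGB3 with 24.0 ± 0.656. ITGA4, at 5.74 ± 0.313, and ITGA9, at 1.42 ± 0.0673 RPKM, were the lowest. The order depends on the length used, here the union of a gene's exons. With the longest transcript as length, ITGA3 held 19.4% and ITGA6 17.3% of the summed level of alpha chains in these controls.

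The experiment 1 controls had another order. By union exons ITGA6 led there with 62.5 ± 6.50 RPKM (SD, n = 2), and the ranges of ITGA6, ITGB5, ITGA5 and ITGB1 each overlapped the next in order. With the longest transcript as length ITGA3 passed ITGA6, with 23.6% against 20.7% of the summed level of alpha chains. ITGA3 stood at 46.5 ± 1.71 RPKM, ITGB3 at 29.4 ± 2.34, ITGA4 at 14.0 ± 1.79, ITGAV at 12.1 ± 1.16, ITGA2 at 11.3 ± 2.35 and ITGA9 at 8.06 ± 3.86. The last 4 each overlapped the next in order. In the PHF10 siRNA libraries ITGA6, ITGA3, ITGB1, ITGB5, ITGA5, ITGA2 and ITGB3 formed a chain of overlapping ranges from 89.9 ± 25.6 down to 37.8 ± 11.5 RPKM (SD, n = 4). ITGAV, at 17.8 ± 1.74, ITGA4, at 9.04 ± 1.85, and ITGA9, at 2.23 ± 0.726 RPKM, each stood apart below them. In the libraries labelled MYC siRNA, ITGB1 was at 79.9 ± 4.75 and ITGA5 at 76.8 ± 8.28 RPKM (SD, n = 2), with overlapping ranges, and ITGA9 was again the lowest at 2.22 ± 0.0106.

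The level of ITGB3 per length may be a lower bound. In the GENCODE 29 annotation 51.6% of its exon bases, 2266 of 4394, are shared with exons of AC068234.1 on the same strand. That gene had 0 reads in every library. If the unnamed counting annotation holds the same overlap, reads in shared exons count for neither gene. In that case the same counts, divided by the 2128 bases that are not shared, give 78.0 RPKM for ITGB3 in the PHF10 siRNA group and 60.7 in its controls. They give 52.1 in the libraries labelled MYC siRNA and 49.5 in their controls. Reads per exon were not at hand to check this. No other member shared exons with a gene of the same strand.

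**Figure D1:**
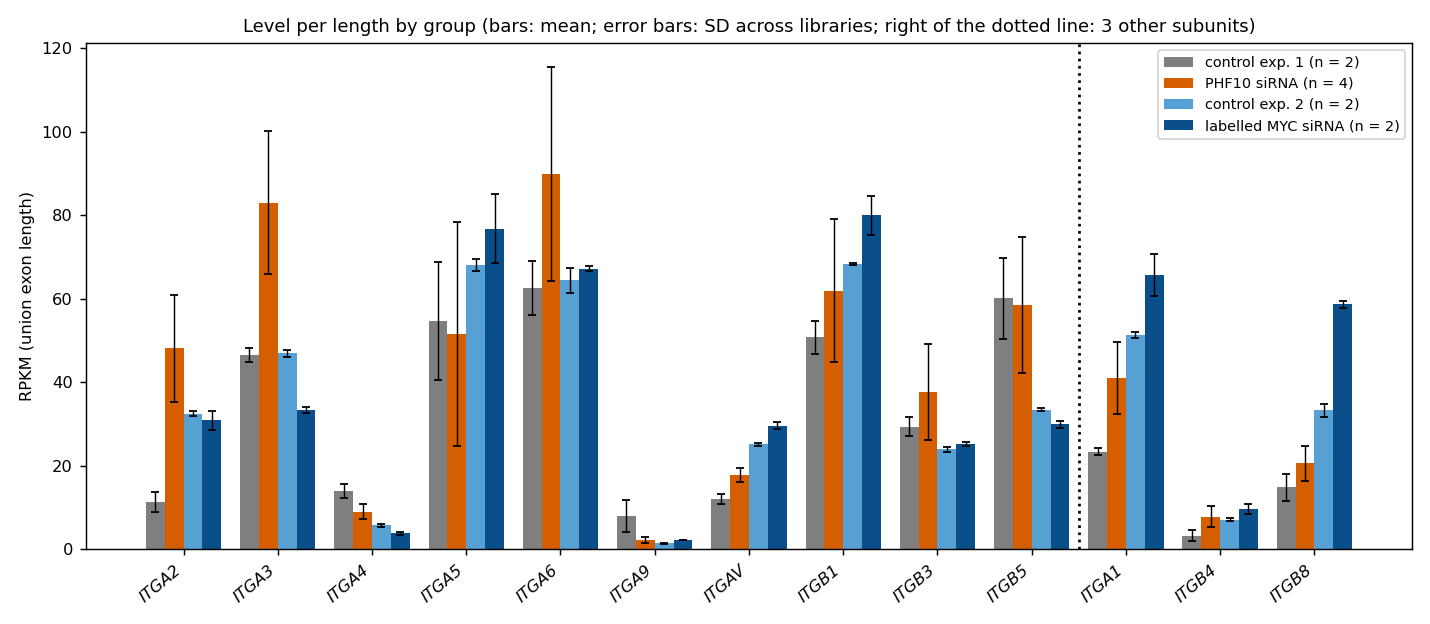
Mean RPKM of the 10 integrin subunits and of ITGA1, ITGB4 and ITGB8, right of the dotted line, as bars for the 4 groups with the SD across libraries as error bars. In experiment 1 ITGA2 averages 11.3 RPKM in the controls and 48.1 after PHF10 siRNA, while ITGA9 averages 8.06 and 2.23.

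After PHF10 siRNA, ITGA2, ITGA3 and ITGAV rose and ITGA9 fell. The largest rise was that of ITGA2, the collagen-binding alpha chain, at 4.25-fold, and ITGA9, the alpha chain that binds tenascin and VCAM1, fell to 0.277 of its control level. In bulk RNA, less mRNA per cell and fewer cells with the mRNA cannot be told apart. These 4 of 10 members passed an adjusted p of 0.05 (edgeR's quasi-likelihood test, Benjamini-Hochberg over 18450 genes), against 6.34% of all genes tested. The members were chosen with earlier results of these data known, so shares set side by side are a description and no test. By direction, 3 of 10 members were higher against 2.75% of all genes, and 1 of 10 was lower against 3.58%. The median log2 change of the members was 0.32, beside 0.02 for all genes tested. With experiment 1 fitted alone, which leaves its larger spread unpooled, 0 of 10 members passed, where 0.129% of all genes were higher, 0.151% lower and 0.28% either. The adjusted p of these 4 lay between 0.0523 for ITGA2 and 0.146 for ITGA3 (edgeR). With a separate variance for each group (limma-voom with group weights) 3 members were higher and 1 was lower, against 1.8% and 2.94% of all genes and 4.75% in either direction.

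Among alpha chains that pair with ITGB1 alone, ITGA2 was at 476, 457, 273 and 316 CPM in PHF10 siRNA replicates 1 to 4 and at 103 and 76.5 CPM in the 2 controls. The lowest knockdown library lay well above the higher control, so the groups did not overlap. The log2 change, the log2 ratio of the fitted group levels, was 2.09 (SE 0.26, adjusted p = 0.00352 in edgeR). Left out one at a time, none of the 10 libraries took ITGA2 over the threshold, with changes of 1.88 to 2.40 over all alternatives run. Replicates 1 and 2, the highest in ITGA2, also had the highest level of interferon genes among the knockdown libraries. With that level as a covariate the change of ITGA2 was 2.15 (SE 0.09). Beside the control nearer in interferon level, ITGA2 was 4.54-fold higher in replicates 1 and 2 and 3.85-fold higher in replicates 3 and 4. The same ratios were 1.82 and 1.75 for ITGA3, 1.70 and 1.29 for ITGAV and 0.359 and 0.236 for ITGA9, each against 1 control and with no test.

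ITGA2 lies on chromosome 5 (GRCh38, 52989326 to 53094779, plus strand). The 200 bases that end 50 bases before its RefSeq start are shown because ITGA2 had the largest rise of the members. The sequence is from RefSeq GRCh38.p14, chr5:52989102-52989301 on the plus strand, with each GGGCGG, the core of a GC box, in capitals.
ITGA2: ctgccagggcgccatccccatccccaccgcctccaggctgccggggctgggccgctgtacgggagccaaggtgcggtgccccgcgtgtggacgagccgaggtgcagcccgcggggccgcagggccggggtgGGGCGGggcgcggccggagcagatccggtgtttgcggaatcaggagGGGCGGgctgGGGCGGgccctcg
It holds 3 GC boxes on 78.5% G and C. GGGCGG on either strand was present in 35.0% of 35116 such windows of all genes and in 6 of the 12 windows found for 7 members.

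Of the laminin-binding chains ITGA3 passed the test. ITGA3, which pairs with ITGB1, was at 653, 1048, 799 and 753 CPM after PHF10 siRNA and at 468 and 444 CPM in the controls. Every knockdown library was above both controls. ITGA3 (chromosome 17, 50055968 to 50090481, plus strand) rose by 0.84 in log2 units (SE 0.18, adjusted p = 0.0286 in edgeR). ITGA6, the other laminin chain, was at 397, 793, 631 and 528 CPM against 378 and 438 CPM, so that replicate 1 fell between the controls. Its log2 change of 0.52 (SE 0.24) did not pass the test, with an adjusted p of 0.226 in edgeR.

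Both chains of the VCAM1-binding kind were lower in each knockdown library than in either control. ITGA9 was at 12.4, 19.3, 26.4 and 15.7 CPM after PHF10 siRNA and at 44.1 and 89.3 CPM in the controls. The 2 controls differed from each other by more than the lower of them did from the highest knockdown library. ITGA9 fell by 1.85 in log2 units (SE 0.30, adjusted p = 0.00922 in edgeR), and without control replicate 2 the change was -1.26 with an adjusted p of 0.102 (edgeR). It lies on chromosome 3 at 37452115 to 37823514, where exons of ITGA9-AS1 overlap its exons on the opposite strand, and reads of that strand were counted apart. ITGA4, which lets white cells and melanoma cells bind VCAM1, was at 66.0, 56.4, 72.3 and 91.0 CPM against 100 and 121 CPM. Its log2 change was -0.63 (SE 0.17, adjusted p = 0.0603 in edgeR), short of the threshold, and it passed with DESeq2 at an adjusted p of 0.0153 and without PHF10 siRNA replicate 4 at 0.0192.

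Of the RGD-binding chains, ITGAV was at 147, 166, 137 and 135 CPM after PHF10 siRNA and at 92.4 and 106 CPM in the controls. The 4 knockdown libraries lay close together and above both controls. ITGAV rose by 0.56 in log2 units (SE 0.12; adjusted p = 0.0260, edgeR). Without either control of experiment 1 the adjusted p was 0.184 or 0.102 for ITGAV and 0.135 or 0.196 for ITGA3, and without any library of experiment 2 it lay between 0.0631 and 0.0667 for ITGAV and between 0.0650 and 0.0667 for ITGA3. ITGAV, the other rising chain found among the RefSeq starts, had 2 windows, and neither holds any of the motifs searched. The second is at chr2:186599955-186600154 and is not shown. The first is shown, chr2:186589806-186590005, plus strand, RefSeq GRCh38.p14.
ITGAV: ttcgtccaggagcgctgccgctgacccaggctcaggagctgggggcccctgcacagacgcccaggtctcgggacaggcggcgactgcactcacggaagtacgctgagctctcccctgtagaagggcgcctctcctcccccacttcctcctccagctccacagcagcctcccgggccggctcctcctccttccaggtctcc
ITGAV itself lies on chromosome 2 at 186590065 to 186680901.

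The fibronectin chain ITGA5 and the beta chain ITGB3 varied more among the PHF10 siRNA libraries than between the groups. ITGA5 was at 637, 226, 223 and 475 CPM in replicates 1 to 4 and at 490 and 338 CPM in the controls. ITGB3 was at 224, 125, 122 and 192 CPM in the same order and at 136 and 122 CPM in the controls. Both were high in replicates 1 and 4 and low in replicates 2 and 3, and both overlapped the controls. The log2 change was -0.08 (SE 0.40, adjusted p = 0.931) for ITGA5 and 0.36 (SE 0.24, adjusted p = 0.404) for ITGB3 in edgeR.

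The remaining beta chains ran otherwise. ITGB1 was at 248, 494, 401 and 346 CPM in PHF10 siRNA replicates 1 to 4 against 288 and 322 CPM. ITGB5, which joins ITGAV in a vitronectin receptor, was at 275, 507, 416 and 310 CPM against 344 and 432 CPM. Both were lowest in replicate 1 and highest in replicate 2, as was ITGA6, and both overlapped the controls. ITGB1 had a log2 change of 0.29 (SE 0.23, adjusted p = 0.502) and ITGB5 one of -0.04 (SE 0.23, adjusted p = 0.941) in edgeR, and the sign of ITGB5 turned with upper-quartile scaling (0.01). No beta chain among the members passed the test. Counted by libraries alone, 3 members were higher in all 4 knockdown libraries than in both controls, 2 were lower and 5 overlapped, against 13.4% of all genes higher, 13.7% lower and 27.2% in all without overlap.

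**Figure D2:**
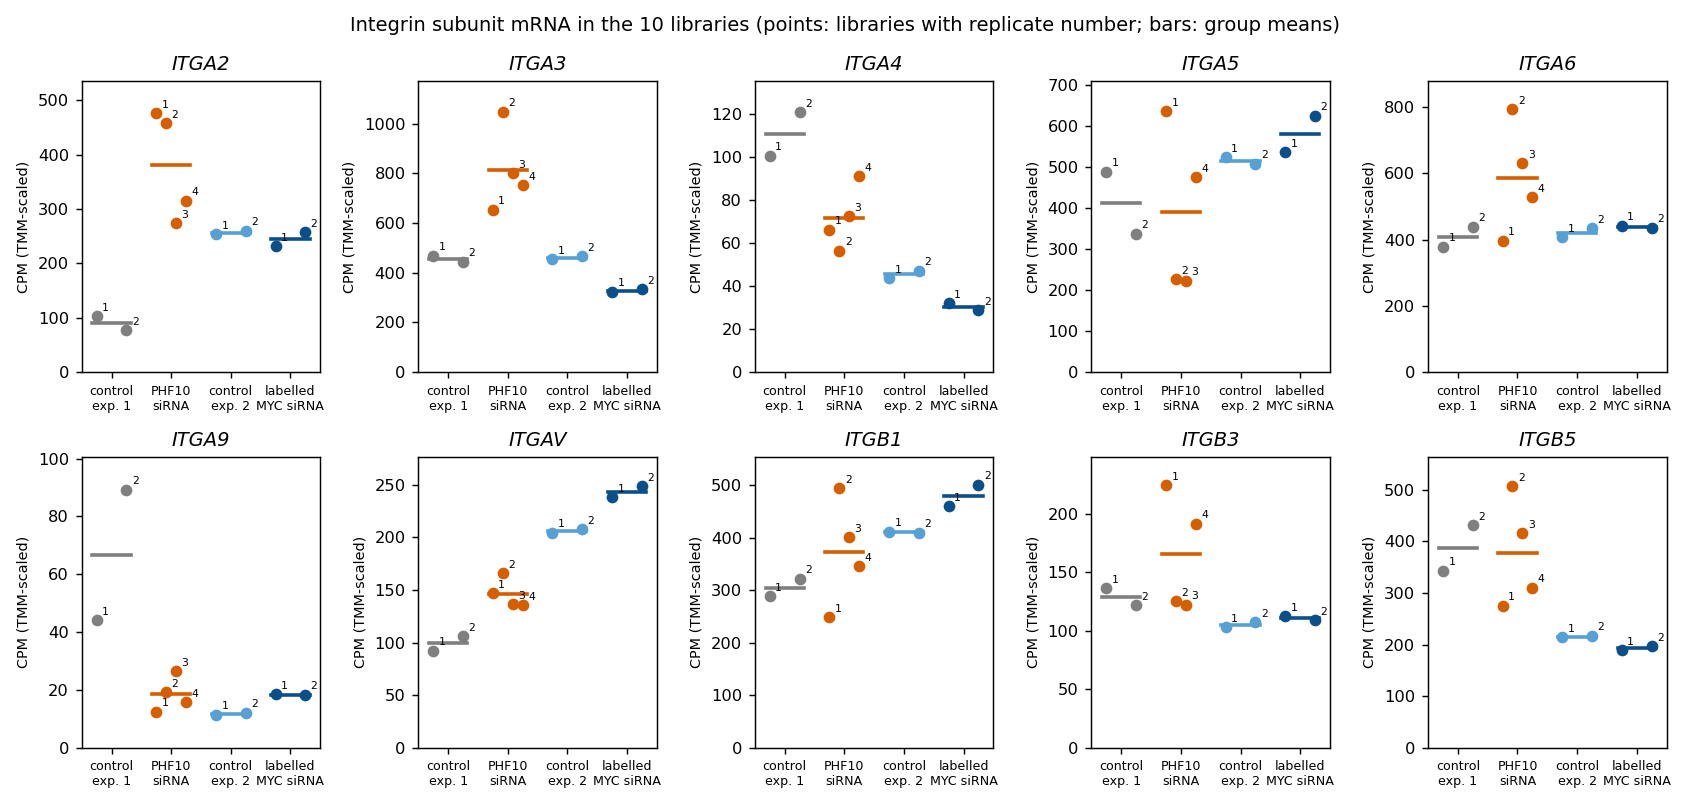
CPM of each integrin subunit in every library, with 1 panel per gene, the 4 groups side by side, numbers for replicates and bars for group means. ITGA2, ITGA3 and ITGAV lie above both controls in all 4 PHF10 siRNA libraries, ITGA4 and ITGA9 lie below them, and ITGA5 ranges from 223 to 637 CPM among the knockdown libraries.

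The split among the PHF10 siRNA libraries reached other genes. KDR, a receptor for VEGF, was at 199, 7.30, 14.5 and 105 CPM in replicates 1 to 4, and CSPG4, a melanoma proteoglycan that joins integrins at the membrane, was at 2601, 978, 975 and 1743 CPM. The summed level of 6 endothelial markers was 204, 8.96, 15.7 and 109 CPM in these libraries, 61.3 and 46.8 CPM in their controls and 31.1 to 57.2 CPM in experiment 2. Most of it was KDR, while PECAM1 and CDH5 reached at most 2.18 and 0.521 CPM in any library and CLDN5 was at 0 in all. The part of these markers in the levels of ITGA5 and ITGB3 was not tested.

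As a description over the 10 libraries, with each experiment's mean removed and all points on 1 scaling of library size, ITGA6 and ITGB1 moved most closely together (Pearson's r of log2 CPM 0.929). ITGA2 and ITGAV had an r of 0.869 and ITGA5 and ITGB3 one of 0.801. The opposite course was widest for ITGA2 and ITGA9 (r -0.920), ITGA5 and ITGB5 (r -0.901) and ITGB3 and ITGB5 (r -0.882). The difference between knockdown and control libraries stays in each r, so r does not give the course within a group.

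**Figure D3:**
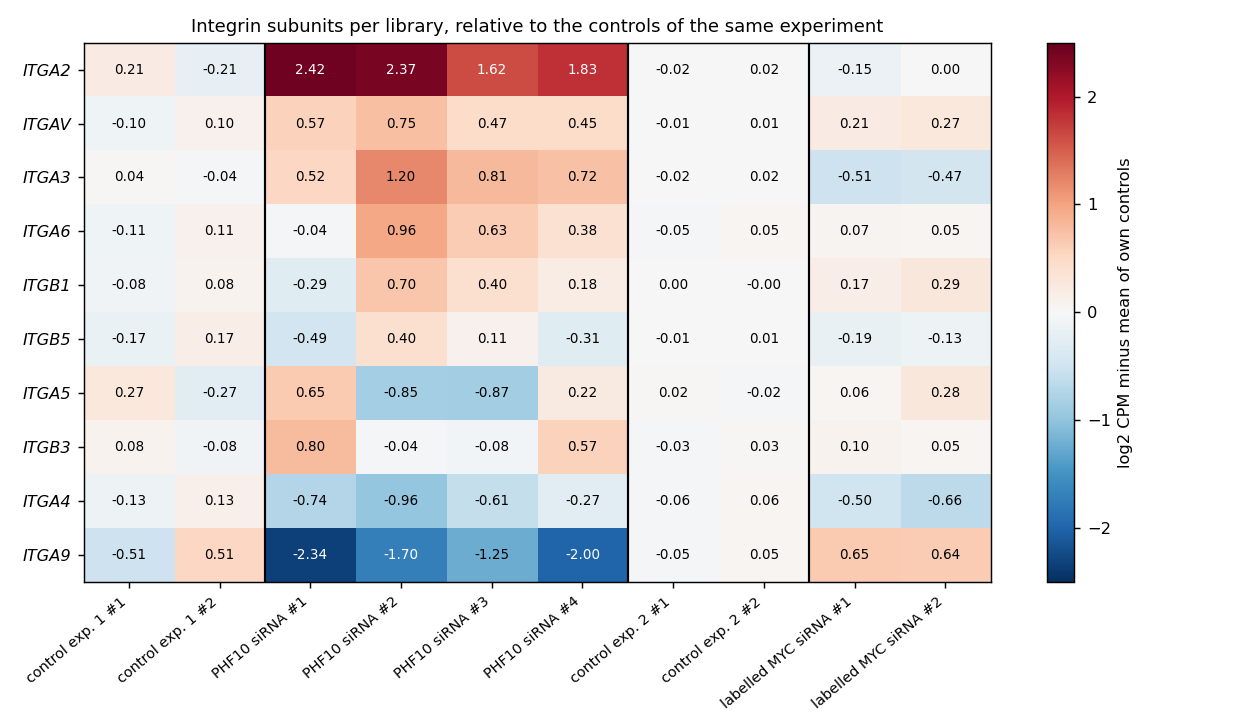
Level of the 10 integrin subunits in each library, as log2 CPM minus the mean of the controls of its experiment, printed in each cell and shown as a colour from blue (lower) to red (higher). ITGA5 and ITGB3 are high in PHF10 siRNA replicates 1 and 4, while ITGA6, ITGB1 and ITGB5 are lowest in replicate 1 of that group.

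By share, ITGA2 took 4.68% ± 0.907 (SD, n = 2) of the summed RPKM of 18 alpha chains in the experiment 1 controls and 13.4% ± 2.73 (SD, n = 4) after PHF10 siRNA. The summed level of the 12 alpha chains that can pair with ITGB1 was 8.50, 4.92, 4.69 and 5.95 times the level of ITGB1 in PHF10 siRNA replicates 1 to 4 and 5.05 and 4.43 times in the controls. Replicate 1, with the least ITGB1, had the highest ratio, and the other knockdown libraries ranged into the controls. The 10 members made up 81.6% to 86.1% of the RPKM of all 26 integrin genes in the PHF10 siRNA libraries and 86.5% and 87.7% in their controls.

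In the libraries labelled MYC siRNA no member passed the test, 0 of 10 against 0.282% of all genes higher, 0.211% lower and 0.493% either (edgeR, adjusted p under 0.05). At an unadjusted p under 0.05 ITGA3 and ITGA4 were lower, and DESeq2 and limma-voom also called 0. The log2 changes of the members ran from -0.58 to 0.65, with a median of 0.07 beside -0.01 for all genes tested. Fitted alone, with its own smaller spread, experiment 2 gave 4 members higher and 3 lower, where 21.9% of all genes were higher, 22.6% lower and 44.5% either. With a variance for each group (limma-voom with group weights) ITGA9 and ITGAV were higher and ITGA3 and ITGA4 lower, where 16% of all genes were higher, 16.6% lower and 32.6% either. In 9 of 10 members the groups did not overlap, 6 higher and 3 lower, against 33.6% of all genes higher, 36% lower and 69.7% either.

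ITGA3 was at 323 and 333 CPM in the libraries labelled MYC siRNA and at 455 and 466 CPM in their controls. Both labelled libraries lay below both controls, the opposite side from PHF10 siRNA. The log2 change was -0.49 (SE 0.21, adjusted p = 0.348 in edgeR, and 2.41e-14 with experiment 2 alone). ITGA4 was at 32.03 and 28.6 CPM against 43.6 and 47.1 CPM, again below both controls. Its change was -0.58 (SE 0.20, adjusted p = 0.254 in edgeR, and 1.64e-10 with experiment 2 alone).

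ITGA9 was at 18.5 and 18.3 CPM against 11.4 and 12.2 CPM. Both labelled libraries were above both controls, with a log2 change of 0.65 (SE 0.37, adjusted p = 0.502 in edgeR, and 1.05e-08 alone). ITGAV was at 238 and 248 CPM against 205 and 208 CPM, also without overlap. Its change was 0.24 (SE 0.14, adjusted p = 0.504 in edgeR, and 1.92e-06 alone).

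Among the beta chains ITGB1 was at 460 and 501 CPM against 411 and 409 CPM, a log2 change of 0.23 (SE 0.26, adjusted p = 0.789 in edgeR). ITGB5 was at 189 and 197 CPM against 214 and 217 CPM, a change of -0.16 (SE 0.26, adjusted p = 0.864 in edgeR). Fitted alone, experiment 2 gave an adjusted p of 5.38e-06 for ITGB1, 0.00251 for ITGB5 and 0.0187 for ITGA5 (edgeR). ITGA2, at 232 and 257 CPM against 253 and 260 CPM, was the member whose groups overlapped. ITGA6 and ITGB3 had log2 changes of 0.06 and 0.07 and passed in neither fit.

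**Figure D4:**
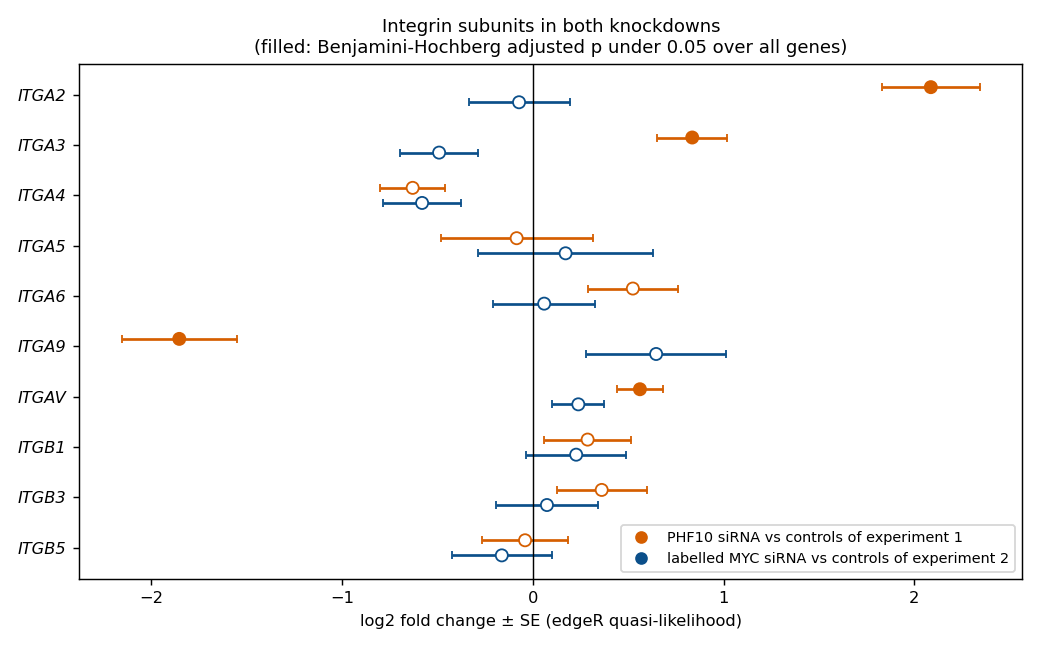
Log2 change of each integrin subunit after PHF10 siRNA and in the libraries labelled MYC siRNA, each against its own controls, with error bars of 1 SE from edgeR and filled points for an adjusted p under 0.05. ITGA2 at 2.09 and ITGA9 at -1.85 lie farthest from 0, both after PHF10 siRNA, and no point of the labelled MYC comparison is filled.

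Tested directly, the PHF10 change minus the labelled MYC change passed for 1 of 10 members, ITGA2, where 0.26% of all genes were higher, 0.125% lower and 0.385% either. The difference was 2.16 in log2 units for ITGA2 (SE 0.36, adjusted p = 0.0464 in edgeR). Leaving out any library other than a PHF10 siRNA one took this above the threshold. ITGA3, at 1.33 (adjusted p = 0.0755), and ITGA9, at -2.499 (adjusted p = 0.0657), did not pass in edgeR and did with DESeq2. With group variances in limma-voom 2 members were higher and 1 lower, against 1.89% and 1.7% of all genes and 3.58% either. For the other 7 members the adjusted p was above the threshold under each alternative run.

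The controls of experiment 2 differed from those of experiment 1 in 4 of 10 members, 2 higher and 2 lower, against 8.05% of all genes higher, 6.6% lower and 14.6% either. With group variances in limma-voom 2 were higher and 3 lower, against 14.7% and 12.6% of all genes and 27.3% either. ITGA2 was higher in experiment 2 by 1.52 in log2 units (adjusted p = 0.00703) and ITGAV by 1.06 (adjusted p = 0.00166), while ITGA9 was lower by a log2 change of -2.504 (adjusted p = 0.00322) and ITGA4 by one of -1.28 (adjusted p = 0.00431, all in edgeR). Without control replicate 2 of experiment 1 the adjusted p of ITGA2 was 0.05004, and without control replicate 1 of experiment 2 that of ITGA4 was 0.0582. The change of ITGA9 was -1.89 without control replicate 2 of experiment 1 and -2.92 without its control replicate 1, and it passed both times (adjusted p = 0.0181 and 0.00382 in edgeR). These comparisons and those of PHF10 siRNA share the experiment 1 controls. For ITGA2 the PHF10 siRNA libraries averaged 381 ± 101 CPM (SD, n = 4), with 89.7 ± 18.6 CPM in their controls and 257 ± 4.53 CPM in the experiment 2 controls (SD, n = 2 each). For ITGA9 the same means were 18.4 ± 6.01, 66.7 ± 31.96 and 11.8 ± 0.557 CPM. For ITGAV they were 146 ± 14.3, 99.1 ± 9.51 and 206 ± 2.21 CPM, and for ITGA4 71.4 ± 14.6, 111 ± 14.2 and 45.3 ± 2.47 CPM. In all 4 genes the PHF10 siRNA mean lay on the same side of the experiment 1 controls as the experiment 2 controls did. These 4 were picked as the members called between controls, and both differences start from the same 2 libraries, so they are not independent. How many of all genes show the same side was not counted. ITGA3, which also rose after PHF10 siRNA, differed by 0.01 in log2 units between the controls. ITGB5, short of the threshold between controls at a log2 change of -0.85 (adjusted p = 0.0593 in edgeR), had one of -0.04 after PHF10 siRNA. Between controls ITGB5 passed with group variances (adjusted p = 0.00355, limma-voom) and with DESeq2 (adjusted p = 0.0168). PHF10 mRNA was itself higher in the experiment 2 controls than in the experiment 1 controls, by the reads given above. Experiment and library batch cannot be told apart in this comparison.

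Of 16 further integrin subunits 12 were tested, and 3 rose after PHF10 siRNA while 0 fell, against 2.75% of all genes higher and 3.58% lower. The median log2 change of the 12 was 0.77, beside 0.02 for all genes tested. ITGA1, a second collagen-binding partner of ITGB1, averaged 761 ± 160 CPM after PHF10 siRNA and 435 ± 14.8 CPM in the controls, a log2 change of 0.81 (adjusted p = 0.0369). ITGAX, a chain of white cells, rose by 1.56 at 21.9 ± 7.06 against 7.44 ± 2.28 CPM, and ITGB4, the laminin-binding beta chain of hemidesmosomes, rose by 1.25 at 53.1 ± 16.9 against 22.3 ± 8.42 CPM (adjusted p = 0.0265 and 0.0411, edgeR). ITGB4 pairs with ITGA6 alone. ITGB8, which pairs with ITGAV, had a change of 0.47 after PHF10 siRNA and of 0.82 in the libraries labelled MYC siRNA, where it averaged 889 ± 11.6 against 504 ± 24.98 CPM, and passed in neither (adjusted p = 0.199 and 0.152, edgeR). ITGB2, the beta chain of white cells, at 1.05 ± 0.356 against 3.69 ± 0.0356 CPM, was the 1 further subunit lower in the labelled MYC comparison (log2 -1.81, adjusted p = 0.0482 in edgeR). Of all genes 0.211% were lower there and 0.282% higher. ITGA7, ITGA10, ITGA11 and ITGAE passed in neither, with PHF10 siRNA changes of -0.25, 0.74, 0.24 and 0.17. Their mean RPKM in the libraries labelled MYC siRNA was 2.68, 0.246, 0.531 and 1.70, against 1.36, 1.42, 0.859 and 1.68 in their controls. ITGA10 was at 15.35, 1.135, 2.428 and 10.74 RPKM in PHF10 siRNA replicates 1 to 4, against 2.329 and 6.536 RPKM in the controls. Fitted alone, experiment 1 called 0 of the 12, against 0.28% of all genes. Experiment 2 alone called 4 higher and 5 lower, against 21.9% of all genes higher, 22.6% lower and 44.5% either. With group variances 3 were higher and 0 lower after PHF10 siRNA, against 1.8% and 2.94% of all genes. In the labelled MYC comparison they gave 4 higher and 3 lower, against 16% and 16.6% of all genes.

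Genes around the receptors were counted in 4 lists, to be read beside the 6.34% of all genes called after PHF10 siRNA and their median of 0.02. Of 46 tested proteins that bind integrin tails or build adhesions, 1 rose, FERMT1 (kindlin-1, an integrin activator), by 1.32, and 1 fell, TNS3 (a tensin of adhesions), by a log2 change of -0.75 (adjusted p = 0.00819 and 0.00809, edgeR). The median over the list was 0.01. Of 40 tested ligands 3 rose and 0 fell, namely ADAM9, a disintegrin, by 1.06, COL6A3, a collagen VI chain, by 1.52 and LAMA1, a laminin chain, by 1.57, with a list median of 0.09. COL6A3, at 16.8 ± 4.39 against 5.85 ± 0.994 CPM, and LAMA1, at 7.65 ± 1.60 against 2.59 ± 1.34 CPM, were low in all experiment 1 libraries.

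Of 17 proteins that join integrins in the membrane, 3 rose and 0 fell, with a list median of 0.27. SLC3A2, the heavy chain of CD98, which binds beta 1 tails, rose by 0.86 (adjusted p = 0.00411), the tetraspanin TSPAN4 by 0.54 (adjusted p = 0.0162) and CAV1, the caveolae coat protein, by 0.67 (adjusted p = 0.0454, edgeR). Of 15 genes of integrin endocytosis and recycling 1 rose, RAB11FIP1, by 0.47, and 0 fell, with a median of 0.10. In the libraries labelled MYC siRNA 2 adaptors fell, TNS3 by 0.81 and the actin linker VCL by 0.64 in log2 units, and 2 membrane partners fell, CAV1 to 0.354 of its control level and the syndecan SDC4 to 0.292 (adjusted p = 0.0428, 0.0343, 0.0203 and 0.00650 in edgeR). No ligand and no recycling gene passed there, where 0.493% of all genes did. With experiment 1 alone none of these lists held a called gene, where 0.28% of all genes were called. With experiment 2 alone, where 44.5% of all genes were called, 14 ligands were higher and 13 lower, 7 recycling genes higher and 1 lower, 10 adaptors higher and 16 lower, and 5 membrane partners higher and 7 lower. With group variances these counts were 11 and 12 for ligands, 3 and 1 for recycling genes, 6 and 10 for adaptors and 4 and 5 for membrane partners. Of all genes 16% were higher, 16.6% lower and 32.6% either in that fit. After PHF10 siRNA it called 0 recycling genes, so RAB11FIP1 did not pass, and left the counts of the other 3 lists unchanged. There 1.8% of all genes were higher and 2.94% lower.

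Among markers of other cell types, the summed level of 8 epithelial genes was 323 to 379 CPM after PHF10 siRNA and 256 and 267 CPM in the controls, and 186 and 190 CPM in the libraries labelled MYC siRNA against 297 and 301 CPM. Most of it was the keratin KRT18, which melanoma lines can express, while CDH1 reached at most 0.0811 CPM and EPCAM at most 1.075 CPM in any library. All 6 epithelial genes tested had log2 changes above 0 after PHF10 siRNA (median 0.36, 0 called) and below 0 in the labelled MYC comparison (median -1.24, 1 called in edgeR and 5 with experiment 2 alone). The 4 endothelial genes tested were also below 0 in the labelled MYC comparison (median -0.77, 0 called and 3 with experiment 2 alone). Of all genes 0.493% were called in that comparison in edgeR. With experiment 2 alone 44.5% of all genes were called, 21.9% higher and 22.6% lower. After PHF10 siRNA 6.34% of all genes were called, 2.75% higher and 3.58% lower. The summed level of 6 fibroblast genes was 26.2 to 47.2 CPM after PHF10 siRNA, 24.5 and 35.7 CPM in the controls and 13 to 16.7 CPM in experiment 2, and that of 6 immune genes was 1.79 to 4.23 CPM over all libraries. Of 6 fibroblast markers COL3A1, at 2.66 ± 1.15 CPM after PHF10 siRNA and 0.295 ± 0.173 CPM in the controls, was the 1 that rose. Of 11 tested melanoma and neural crest markers 1 fell with PHF10 siRNA, S100B, by 1.11 in log2 units at 36.0 ± 8.03 against 77.6 ± 6.37 CPM (adjusted p = 0.00924). In the labelled MYC comparison NGFR fell by 1.99 and the keratin KRT14 by 1.77 (adjusted p = 0.0289 and 0.0343, edgeR). The part of any of these markers in the integrin values was not tested.

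By Pearson's r of log2 CPM over the 10 libraries, each experiment's mean removed, the patterns most like that of ITGA2 among 11543 genes of at least 5 CPM were SLC17A5 (r 0.992), MET (r 0.988) and ADGRE2 (r 0.982). For ITGA3 they were TNFRSF11B, DGKG and PLD1 (r 0.963, 0.959 and 0.951), and for ITGAV CCDC126, HEATR5B and SPPL2A (r 0.975, 0.973 and 0.969). For ITGA9 they were KIF13A, PCIF1 and TFAP2B (r 0.966, 0.964 and 0.959). These values include the difference between knockdown and control libraries and describe the 10 libraries only.

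The promoter windows were also read for 2 further motifs. CACGTG, the E-box bound by MYC and MAX, was in 4.51% of all windows and, among the 12 windows of the members, in 1 of ITGA6. That window is shown because MYC is 1 of the genes targeted, at chr2:172427086-172427285 on the plus strand of RefSeq GRCh38.p14, with the E-box in capitals.
ITGA6: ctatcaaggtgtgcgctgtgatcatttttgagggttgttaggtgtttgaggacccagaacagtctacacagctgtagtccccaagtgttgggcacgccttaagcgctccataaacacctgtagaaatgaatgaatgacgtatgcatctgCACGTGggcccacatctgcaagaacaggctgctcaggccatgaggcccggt
ITGA6 had a log2 change of 0.06 in the labelled MYC comparison. TGANTCA, the AP-1 site with N for any base, was in 5.27% of all windows and in 0 of the 12. ITGA3, ITGA9 and ITGB3 had no entry in the table of starts.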

How the data were processed

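Polyadenylated RNA of 10 A375 libraries was prepared with a directional kit and read as single 100-nt reads, per the labels' protocols. The submitters' processing notes name cutadapt and STAR and the builds GRCh38.p13 and hg38. Neither tool's version nor the annotation for counting is named there. Raw counts were deposited per Ensembl gene ID, and the column for the opposite strand was used. In each library 19.1% to 23.6% of reads were in lines that name no gene and stayed out of library sizes.

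The quasi-likelihood test of edgeR 4.0.16 was run in R 4.3.3 on these counts, with filterByExpr, TMM scaling and a robust spread, all 10 libraries as 4 group means (6 residual degrees of freedom). Calls used a Benjamini-Hochberg adjusted p under 0.05 over 18450 genes. The fit was tested on simulated data, and no result of that test is given here. Nothing is concluded from it about the pooling of both experiments, whose spreads between replicates were unequal as given above. CPM are counts over TMM-scaled library sizes, and RPKM are divided by the union of exons in GENCODE 29, which may not be the counting annotation. Gene positions are from GENCODE 29, and promoter stretches, found for 7 of 10 members, from RefSeq. The stretch used ends 50 bases before the start.

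Alternatives were DESeq2 1.42.0, limma-voom (limma 3.58.1), also with a variance for each group, RLE and upper-quartile factors, no filter, a filter of 1 CPM in 4 libraries, unstranded counts, each experiment alone, a replicate block, an interferon covariate, each library left out and, for levels, the longest transcript. The group variances were added after the data were seen.

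The members and all gene lists were chosen with earlier results of these data known. The text names all members, integrin subunits of at least 5 CPM, up to 3 genes a direction of each other list past the threshold with the smallest p, and the 3 genes most like each member that passed after PHF10 siRNA. The genes KDR and CSPG4, named for the split among PHF10 siRNA libraries, and the fibroblast, endothelial, melanoma and epithelial markers were set beside the members after their values were seen.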

Additional observations from a re-analysis of the deposited data

Results flagged for a closer look

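The change of ITGA2 after PHF10 siRNA differed from its change in the libraries labelled MYC siRNA. The difference was 2.16 on the log2 scale (SE 0.36, adjusted p = 0.0464 by edgeR's quasi-likelihood test, Benjamini-Hochberg over all genes). It did not pass in edgeR with the filter of 1 CPM in 4 libraries (adjusted p = 0.05135) or with the replicate block (adjusted p = 0.0732). Its dependence on single libraries is given above. ITGA2 was higher than both controls in 4 of 4 PHF10 siRNA libraries, while the libraries labelled MYC siRNA overlapped their controls. Among the 4 PHF10 siRNA libraries, 0 of the 10 members had a library far from the others by Dixon's test. That test looks for a single outlying library and cannot flag an even split, such as those of ITGA5 and ITGB3 described above. ITGA5 ranged from 223 to 637 CPM in these libraries, with an SD of 51.9% of the mean.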

How the results depend on the processing

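Of all genes, the main fit called 6.34% after PHF10 siRNA, 0.493% in the labelled MYC comparison, 0.385% for the difference and 14.6% between controls. After PHF10 siRNA, 3 members were higher and 1 lower. The lower count was 2 with DESeq2, no filter, unstranded counts or the interferon covariate, when ITGA4 passed too. With experiment 1 alone 0 were higher and 0 lower, against 0.28% of all genes. Leaving out 1 library at a time gave 1 to 3 higher and 0 to 2 lower. In the libraries labelled MYC siRNA, 0 passed. With experiment 2 alone this comparison gave 4 higher and 3 lower, against 44.5% of all genes called. With group variances it gave 2 higher and 2 lower, against 32.6%. Leaving out libraries gave 0 there. For the difference of the changes 1 was higher and 0 lower. The counts were 2 and 1 with DESeq2, no filter, the interferon covariate or group variances, the last against 3.58% of all genes. With the filter of 1 CPM in 4 libraries 0 were higher. Leaving out libraries gave 0 to 2 higher and 0 to 1 lower. Between controls, 2 were higher and 2 lower, with 1 to 2 and 1 to 3 when libraries were left out.

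Signs turned in members near 0. ITGB5 after PHF10 siRNA was 0.0074 with upper-quartile factors and -0.213 to 0.131 with libraries left out. ITGA5 was 0.00027 with the interferon covariate and -0.425 to 0.198 with libraries left out. The difference ranged with libraries left out from -0.187 to 0.0874 for ITGA4, -0.597 to 0.0299 for ITGA5, -0.100 to 0.212 for ITGB1 and -0.0466 to 0.296 for ITGB5. Between controls ITGA3 was -0.101 with upper-quartile factors, -0.0188 with the stricter filter and -0.00851 to 0.0615 with libraries left out, and ITGA6 was -0.0710 with upper-quartile factors, -0.0539 with the covariate and -0.0506 to 0.167 with libraries left out. The cause was not tested.

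Replicate numbers were shared by 2 libraries of each group, and the deviations of same-numbered libraries had an r of 0.137 in experiment 1 and -0.0309 in experiment 2. No label says that a number marks a shared culture or day, and 2 numbers do not establish a pairing or its absence. With the replicate block 2 members were higher after PHF10 siRNA, where 366 of all genes were higher and 503 lower. ITGA3 had an adjusted p of 0.088 there (edgeR). For the difference 0 members were higher and ITGB1 was -0.0237. The labelled MYC comparison called 52 genes higher and 39 lower without the block and 0 with it. The block and the fits of 1 experiment have no value between controls.

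By the longest transcript the shares of the summed alpha level were 9.41% for ITGA2 and 29.01% for ITGA3 after PHF10 siRNA, and 3.23%, 23.6% and 20.7% for ITGA2, ITGA3 and ITGA6 in the controls. With unstranded counts ITGA3 was at 20.1% there. By union exons the controls had 4.68%, 19.2% and 25.8%. The order of ITGA3 and ITGA6 thus turned with the length used. It turned after PHF10 siRNA as well, where ITGA6 was at 20.4% by the longest transcript, and at 25.1% beside 23.2% for ITGA3 by union exons.

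Counts over all genes moved widely. PHF10 siRNA gave 508 genes higher and 661 lower, 1040 and 1140 with DESeq2, 1135 and 1237 without a filter, 1148 and 1455 with the covariate, 23 and 27 with experiment 1 alone, and 68 to 650 and 136 to 737 with libraries left out. Group variances gave 333 higher. The labelled MYC comparison gave 358 and 364 with DESeq2, 130 and 81 with limma-voom, 453 and 458 without a filter, 283 and 309 with the covariate, 3827 and 3954 alone and 2945 and 3064 with group variances. The difference, with 48 and 23, gave 363 and 270 with DESeq2, 585 and 333 without a filter, 299 and 236 with the covariate, 348 and 313 with group variances and 1 and 0 with the block. Between controls 1485 were higher and 1217 lower, with 2720 and 2322 by group variances. Upper-quartile factors moved the median of all genes there by -0.12 and the share of higher calls from 55% to 37.8%. With libraries left out the labelled MYC counts were 0 to 131 and 0 to 100, the difference counts 1 to 91 and 0 to 49, and the counts between controls 373 to 1894 and 181 to 1534.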
